A study of Sus scrofa with 8 samples.

Results

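The SLC16 genes described here are SLC16A1, SLC16A3, SLC16A6, SLC16A7, SLC16A9, SLC16A11 and SLC16A13, which encode membrane transporters of the monocarboxylate transporter (MCT) family. They are 7 of the 30282 genes of the count table and were picked by their gene names. The choice was made with values of the same libraries known, so their differences between the media are given as a description and without p-values, and no conclusion is drawn from how many passed a threshold. RNA-Seq counts were available for 4 porcine pancreatic ductal organoid (PPDO) lines, epithelial cultures grown from pig pancreatic ducts in basement membrane extract. The embryonic line Em was made from a pig pancreas before birth. EPN1 and EPN2 came from early postnatal pigs, a stage that runs from birth to shortly after weaning. LPN came from a late postnatal pig before reproductive maturity. Each line was cultured for a week in complete medium, labelled Control, and in differentiation medium, labelled Treated, which gave 8 libraries with 4 per medium. Complete medium held WNT3a, R-spondin1, noggin, FGF10, EGF, gastrin and prostaglandin E2, and differentiation medium held none of them. To maintain PPDO, the study replaced WNT3a, R-spondin1 and noggin by a supplement of conditioned medium (L-WRN). Which of these forms the sequenced cultures were given is not stated in the sources used here. Both media held N2 and B27 supplements, the TGF-beta receptor inhibitor A83-01, the ROCK inhibitor Y-27632, nicotinamide and N-acetyl-L-cysteine. The donors of the study were wild-type pigs and pigs with a green fluorescent reporter under the insulin promoter, and which line came from which is not given in the sources used here. Em and LPN are each 1 line, so that stage and line cannot be told apart. Library totals were 45854950, 40553593, 42788581 and 45980396 counts in complete medium for Em, LPN, EPN1 and EPN2, and 47910657, 46091016, 41572524 and 45802103 counts in differentiation medium in the same order.

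Monocarboxylate transporters of the best known type carry lactate, pyruvate and ketone bodies across the plasma membrane together with a proton. A cell that runs glycolysis at a high rate exports the lactate it makes through them, and other cells take lactate up through them as a fuel. SLC16A3 encodes MCT4, the exporter of glycolytic cells and a known target of hypoxia-inducible factor. SLC16A1 encodes MCT1, which is widely expressed and works in both directions, and SLC16A7 encodes MCT2, which binds pyruvate and lactate tightly. MCT1 and MCT4 reach the membrane with the partner protein basigin (BSG), and MCT2 with embigin (EMB). SLC16A6, SLC16A9, SLC16A11 and SLC16A13 encode less studied members. SLC16A9 has been linked to carnitine and creatine transport, SLC16A6 to ketone body export, and variants at the SLC16A11 and SLC16A13 genes to type 2 diabetes in people.

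In RefSeq coordinates of the pig assembly Sscrofa11.1, SLC16A3 (ENSSSCG00000024018) lies at chr12:796882-807480 and SLC16A1 (ENSSSCG00000006771) at chr4:107510920-107547609. SLC16A7 (ENSSSCG00000000456) lies at chr5:24713009-24871891, SLC16A9 (ENSSSCG00000010210) at chr14:63026661-63109137 and SLC16A6 (ENSSSCG00000017262) at chr12:11857832-11875317. SLC16A11 (ENSSSCG00000017925) at chr12:52434607-52442476 contains the whole of SLC16A13 (ENSSSCG00000017926) at chr12:52435519-52439631, an overlap of 4113 bases. The reagents listed by the study include a stranded mRNA library kit. Whether counting used the strand is not given in the sources used here, so that the split of reads between SLC16A11 and SLC16A13 is uncertain.

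Of the 7 genes, 6 passed the expression filter and SLC16A6 did not. Levels are given in CPM, the counts of a gene over the size of its library in units of 1e6 counts and adjusted by TMM factors, and are compared between libraries of the same gene, since no transcript lengths were used. In differentiation medium the lactate exporter gene SLC16A3 was 53.7- to 192-fold lower and SLC16A11 was 7.12- to 13.9-fold lower than in complete medium, in each of the 4 lines. SLC16A1 was lower in Em and EPN1 and close to its complete medium level in LPN and EPN2. SLC16A13 was lower in each line by less than 2-fold, and SLC16A9 was higher in each line at low counts. In bulk RNA, fewer cells that express a gene and less RNA per cell cannot be told apart.

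**Figure D1:**
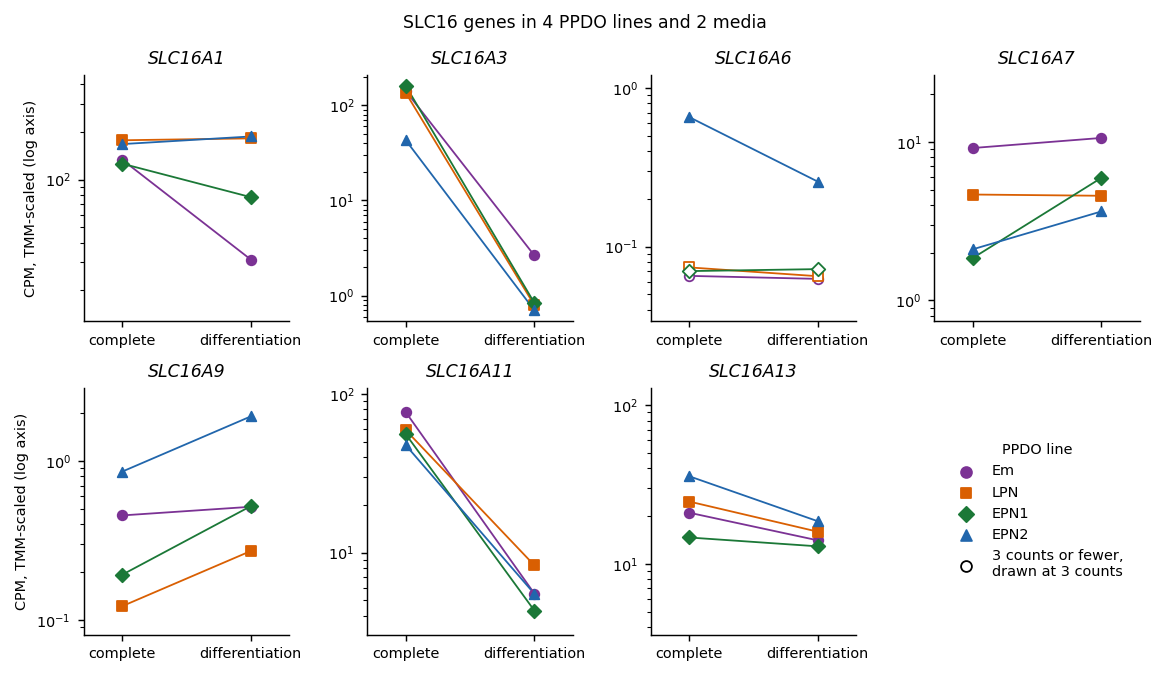
Level of each SLC16 gene in every library (CPM scaled by TMM factors, log axis), with complete medium on the left, differentiation medium on the right and a line joining the libraries of 1 PPDO line. SLC16A3 and SLC16A11 are lower in all 4 differentiation medium libraries than in any complete medium library, whereas the media overlap for SLC16A1, SLC16A7, SLC16A9 and SLC16A13. Open symbols stand for 3 counts or fewer and are drawn at the level of 3 counts.

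SLC16A3 had 142 CPM in Em, 136 CPM in LPN, 161 CPM in EPN1 and 43.1 CPM in EPN2 in complete medium. In differentiation medium it had 2.64, 0.793, 0.837 and 0.700 CPM in the same order. The media did not overlap. EPN2 was the lowest line in complete medium, and Em was the highest in differentiation medium. The mean was 120 ± 52.5 CPM in complete medium against 1.24 ± 0.933 CPM in differentiation medium (SD, n = 4). The log2 change was -5.75 in Em, -7.42 in LPN, -7.58 in EPN1 and -5.94 in EPN2. Across lines, the edgeR fit gave a log2 difference of -6.59 ± 0.67 (differentiation minus complete medium, ± SE, as in all that follow), the 9th most negative of the 14475 genes tested.

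SLC16A11 had 76.9 CPM in Em, 59.2 CPM in LPN, 55.9 CPM in EPN1 and 47.6 CPM in EPN2 in complete medium. Differentiation medium gave 5.53, 8.32, 4.32 and 5.51 CPM in the same order. The media did not overlap, and within each medium the lines lay within 2-fold of each other. The mean was 59.9 ± 12.3 CPM against 5.92 ± 1.70 CPM (SD, n = 4), a log2 difference of -3.34 ± 0.25. The log2 change was -3.80 in Em, -2.83 in LPN, -3.69 in EPN1 and -3.11 in EPN2. The overlapping SLC16A13 had a smaller difference, which is given after SLC16A1.

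SLC16A1 had 133 CPM in Em, 177 CPM in LPN, 126 CPM in EPN1 and 167 CPM in EPN2 in complete medium, a spread of less than 2-fold. The values in differentiation medium were 31.3, 182, 77.4 and 187 CPM in the same order. The lines moved apart. Em was 4.26-fold lower and EPN1 1.63-fold lower, and LPN and EPN2 were 1.03- and 1.12-fold higher. The means were 151 ± 24.9 and 119 ± 77.4 CPM (SD, n = 4), and the log2 difference of -0.34 ± 0.50 was smaller than its error. With 1 library per line and medium, whether the lines respond differently could not be tested. Leaving out the Em library grown in differentiation medium gave a log2 difference of -0.02.

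Genes with the same order of lines were looked for after these values had been seen. HK2, which encodes the hexokinase of glycolytic cells, had log2 changes of -4.99 in Em, -3.02 in EPN1, -1.14 in LPN and 0.75 in EPN2. CA12, a membrane carbonic anhydrase, had -3.93, -2.57, -0.63 and -0.50 in the same order. HIF1A, given further below, had -1.61, -1.17, -0.72 and 0.10. Through this choice, Em and EPN1 had the most negative changes in each of these genes, as for SLC16A1, and nothing is read from it. The share of all genes with this order of lines was not counted. SLC6A8 and MLXIP had the same order of lines, with a higher level in differentiation medium in each line. HK2 and CA12 did not pass the edgeR test between the media (log2 difference -0.90 ± 0.96 and -1.18 ± 0.77, adjusted p = 0.577 and 0.355). DESeq2 with the line as a block called CA12, as lower, and did not call HK2.

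SLC16A13 had 21.0 CPM in Em, 24.7 CPM in LPN, 14.7 CPM in EPN1 and 35.7 CPM in EPN2 in complete medium. Cultures in differentiation medium had 14.1, 15.9, 12.9 and 18.6 CPM in the same order. The level was lower in differentiation medium in 4 of 4 lines, and the ranges of the media overlapped. The mean was 24.0 ± 8.80 and 15.4 ± 2.47 CPM (SD, n = 4), a log2 difference of -0.64 ± 0.27. EPN2 was the highest and EPN1 the lowest line in both media.

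SLC16A7, the gene of the high-affinity transporter MCT2, had 9.14 CPM in Em, 4.65 CPM in LPN, 1.85 CPM in EPN1 and 2.10 CPM in EPN2 in complete medium. The other medium gave 10.6, 4.57, 5.93 and 3.64 CPM in the same order. Em was the highest line in both media. EPN1 was 3.20-fold higher in differentiation medium and EPN2 1.73-fold higher, whereas Em and LPN stood at 1.16 and 0.982 times their complete medium level. The log2 difference was 0.48 ± 0.58, and it was 1.13 without Em in complete medium and 0.09 without Em in differentiation medium.

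SLC16A9 was close to the detection limit. It had 21 counts in Em, 5 in LPN, 8 in EPN1 and 38 in EPN2 in complete medium and 25, 13, 23 and 82 counts in differentiation medium. EPN2 was the highest line in both media, and 4 of 4 lines had a higher CPM of the gene in differentiation medium. The means were 0.407 ± 0.333 and 0.805 ± 0.748 CPM (SD, n = 4), a log2 difference of 0.97 ± 0.79. The log2 change was 0.18 in Em, 1.15 in LPN, 1.44 in EPN1 and 1.16 in EPN2, and the difference was 0.95 ± 0.35 with the line as a block. Without the block, it was 0.09 without the EPN2 library in differentiation medium and 1.63 without that in complete medium.

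SLC16A6 was above the limit of 3 counts that a count of 0 allows in 2 libraries, both of EPN2, with 29 counts in complete and 11 counts in differentiation medium. LPN in complete medium held 1 count, and the remaining libraries held 0, which allows up to 0.0626 to 0.0722 CPM. This limit covers counting error only. The EPN2 values were 0.655 and 0.257 CPM, and no fold is given for the other lines.

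**Figure D2:**
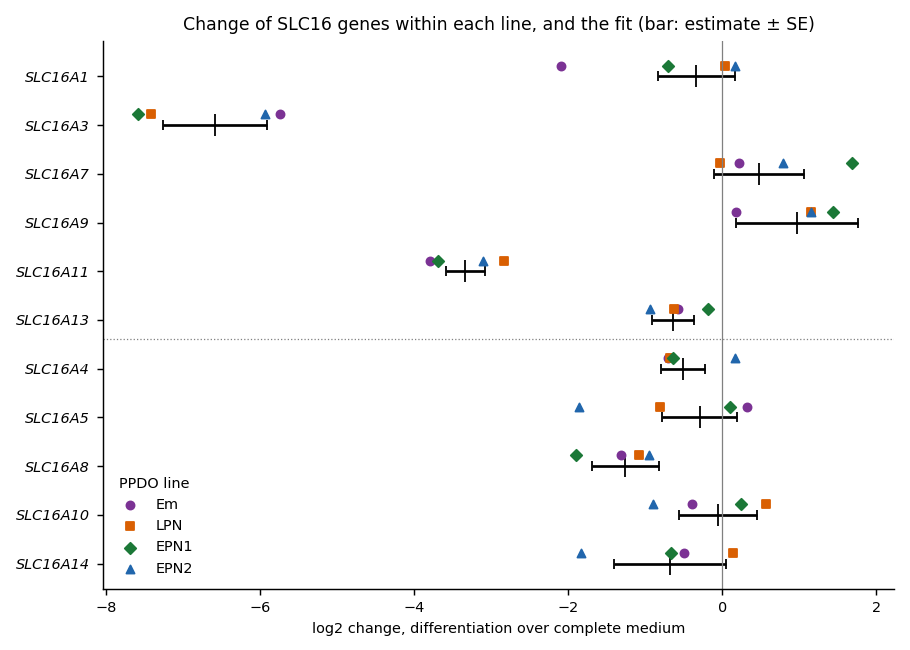
Log2 change from complete to differentiation medium within each of the 4 PPDO lines (symbols) and in the edgeR fit (bar, estimate ± SE), for the 6 SLC16 genes of the description that were tested (above the dotted line) and for SLC16A4, SLC16A5, SLC16A8, SLC16A10 and SLC16A14 (below it). SLC16A3 lies between -7.58 and -5.75 and SLC16A11 between -3.80 and -2.83 in the 4 lines, whereas SLC16A1 runs from -2.09 in Em to 0.16 in EPN2.

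Across all genes tested, 1009 or 6.97% passed the edgeR test between the media (adjusted p-value under 0.05), with 4.10% lower and 2.87% higher in differentiation medium. Of the 6 tested SLC16 genes of the description, 2 were past the threshold, SLC16A3 and SLC16A11, both lower. In a fit that takes line as a block, 2 passed, both lower, against 19.9% of all genes (10.4% lower and 9.48% higher). Every differentiation library lay below every complete medium library for 2 of the 6 genes, against 9.96% of all genes, and above for 0, against 8.82%. The level was lower in 4 of 4 lines for 3 genes, against 24.2%, and higher in 4 of 4 lines for 1, against 23.9%. The median log2 difference of the 6 was -0.49 and that of all genes 0.01. Because the genes were chosen with this contrast known, nothing is read from these counts.

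The table splits a gene over several rows, and rows with the suffix -ext cover an extension, of 10 kb for SLC16A3, SLC16A11 and SLC16A13. At which end of the gene it lies is not given in the sources used here. For SLC16A3, the extension held 6.66% to 14.4% of the counts in complete medium. In differentiation medium it held 22.7% in Em, 86.8% in LPN, 81.1% in EPN1 and 90.0% in EPN2. The gene body of SLC16A3 had 5600, 5143, 6227 and 1779 counts in complete medium for Em, LPN, EPN1 and EPN2. In differentiation medium it had 99, 5, 7 and 3 counts, and Em held the most. The gene body was thus 59.4-fold lower in Em (95% exact binomial interval 48.7 to 73.2), 1201-fold in LPN (514 to 3700), 945-fold in EPN1 (458 to 2352) and 574-fold in EPN2 (196 to 2786). The extension was 34.2-fold lower in Em (23.7 to 51.4), 15.2-fold in LPN (10.6 to 22.3), 16.1-fold in EPN1 (11.2 to 24.2) and 4.55-fold in EPN2 (2.99 to 7.18). These intervals take in counting error alone, not how cultures vary. In the 3 postnatal lines the interval of the gene body lay above that of the extension, so that the fold of the summed rows given above is below that of the gene body.

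SLC16A11 had 21.1% to 24.6% of its counts in the extension in complete medium and 38.8% to 52.9% in differentiation medium. Its gene body was 17.9-fold lower in Em, 10.8-fold in LPN, 20.8-fold in EPN1 and 11.8-fold in EPN2, and its extension 7.57-, 3.42-, 5.96- and 4.78-fold. The extension of SLC16A13 held 2.11% to 7.30% of its counts. Without the extension rows the log2 difference was -7.51 for SLC16A3 and -3.86 for SLC16A11. The nearest RefSeq neighbour of SLC16A3 is CSNK1D, 2386 bases away, which had 195 ± 28.1 and 177 ± 14.5 CPM (SD, n = 4; log2 difference -0.14 ± 0.14, adjusted p = 0.527 from edgeR). A long non-coding RNA gene starts 2 bases from the end of SLC16A11. The share that neighbours have in the extension rows was not tested.

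**Figure D3:**
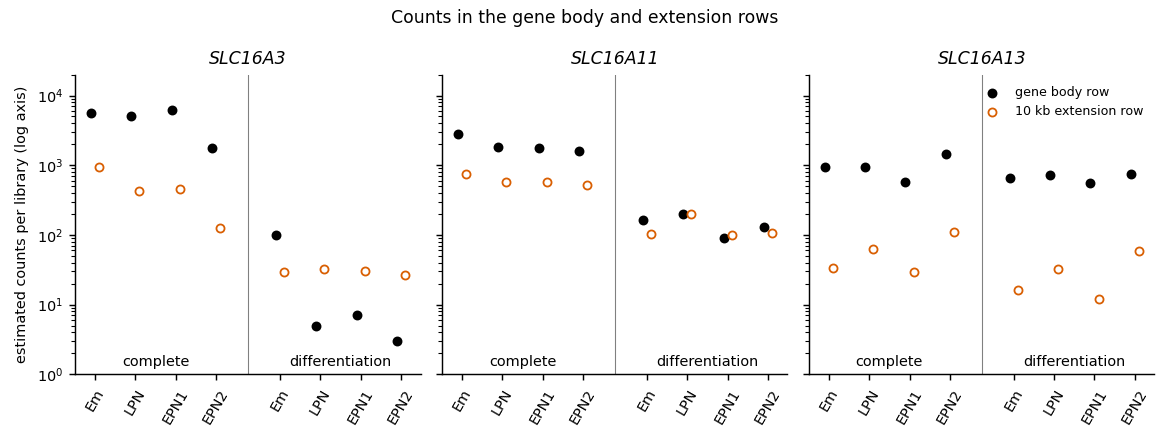
Estimated counts in the gene body row (filled) and the 10 kb extension row (open) of SLC16A3, SLC16A11 and SLC16A13 in each library, on a log axis, with complete medium left and differentiation medium right of the grey line. In LPN, EPN1 and EPN2 the SLC16A3 gene body falls to 3 to 7 counts in differentiation medium while the extension row keeps 27 to 32.8 counts.

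The lines themselves were compared next, a contrast by which the genes were not chosen, in a fit of medium and line in which the 2 cultures of a line stand in as its replicates. Of all genes tested, 744 or 5.14% passed the edgeR test between the lines (adjusted p-value under 0.05). None of the 6 SLC16 genes did, and 3 of the 6 were under 0.05 without adjustment, against 28.2% of all genes. The smallest adjusted p-value was 0.0778 for SLC16A9, followed by 0.139 for SLC16A7 and 0.152 for SLC16A13. The adjusted p-values of SLC16A3, SLC16A1 and SLC16A11 were 0.204, 0.304 and 0.415. The likelihood ratio test of DESeq2 called 3 of them, SLC16A9 (adjusted p = 0.00136), SLC16A7 (0.00612) and SLC16A13 (0.0194), where it called 28.2% of all genes given an adjusted p. For these 3 genes the highest line was the same in both media, as given above.

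Apart from SLC16A8, the other SLC16 genes carry other cargo or are less studied. SLC16A4, SLC16A5, SLC16A8, SLC16A10 and SLC16A14 were tested, and none of these differed between the media in edgeR or DESeq2. SLC16A8, the gene of the retinal pigment epithelium transporter MCT3, was under 0.05 without adjustment in edgeR. It was lower in 4 of 4 lines at 0.365 ± 0.111 and 0.150 ± 0.0611 CPM (SD, n = 4; log2 difference -1.26 ± 0.44, adjusted p = 0.117). SLC16A5 had 56.6 ± 12.9 and 46.2 ± 33.5 CPM (-0.29 ± 0.49, adjusted p = 0.729), with log2 changes of 0.32 in Em, -0.81 in LPN, 0.10 in EPN1 and -1.86 in EPN2. SLC16A12, a creatine transporter gene, had 91 and 454 counts in EPN2 in complete and differentiation medium and at most 2 counts in any other library. As for SLC16A6, the counts above the limit came from EPN2.

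The genes that work with the transporters were read from a list of 58, of which 54 were in the table and 50 were tested. Between the media, 10 were past the threshold in edgeR, 8 lower and 2 higher, against 4.10% lower and 2.87% higher among all genes. The median log2 difference was -0.14 and that of all genes 0.01. A fit with line as block put 15 past it, 9 lower and 6 higher, where 10.4% of all genes were lower and 9.48% higher. This list was written with earlier results of these libraries known, so that its counts are a description.

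Lactate dehydrogenase interconverts pyruvate and lactate, the cargo of MCT1 and MCT4. LDHA, the subunit that predominates in glycolytic cells, had 1168, 1144, 1400 and 929 CPM in complete medium for Em, LPN, EPN1 and EPN2. In differentiation medium it had 361, 147, 174 and 223 CPM (log2 difference -2.36 ± 0.30, adjusted p = 0.0120 from edgeR). LDHD, which acts on D-lactate in mitochondria, fell from 49.6 ± 7.59 to 7.10 ± 3.17 CPM (SD, n = 4; -2.80 ± 0.38, adjusted p = 0.0121). Both fell in 4 of 4 lines, and the media did not overlap. LDHB, the subunit of lactate-consuming tissues, had 4.60 ± 1.76 and 4.48 ± 1.16 CPM (-0.04 ± 0.34, adjusted p = 0.959). LDHC held at most 3 counts in a library. The call of LDHA was lost without EPN1 in differentiation medium (adjusted p = 0.0527).

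Pyruvate that is not turned into lactate enters mitochondria through the carrier MPC1 and MPC2 and is used by pyruvate dehydrogenase, which PDK1 shuts off by phosphorylation. Of 14 genes of this step, 2 were past the threshold, both lower, against 4.10% lower and 2.87% higher among all genes. PDK1 fell from 162 ± 28.4 to 38.9 ± 8.35 CPM (SD, n = 4; log2 difference -2.06 ± 0.20, adjusted p = 0.00581 from edgeR) in 4 of 4 lines. PDHX, a structural subunit of the dehydrogenase complex, fell from 40.5 ± 9.52 to 21.5 ± 4.03 CPM (-0.92 ± 0.21, adjusted p = 0.0442) and passed in 2 of the 8 fits that leave out 1 library, with an adjusted p of up to 0.126 without EPN1 in complete medium. The 2 fits were those without EPN2 in complete medium and without Em in differentiation medium. The catalytic subunit gene PDHA1 had 166 ± 13.3 and 158 ± 9.24 CPM (-0.07 ± 0.11, adjusted p = 0.703). MPC1 was higher in 4 of 4 lines (0.57 ± 0.30, adjusted p = 0.258) and passed with the line as a block (adjusted p = 0.0331). MPC2 was lower in 4 of 4 lines, at 12.1 ± 0.911 and 8.21 ± 2.40 CPM (SD, n = 4; -0.56 ± 0.23, adjusted p = 0.171, and 0.0867 with the block), and DESeq2 called it with the block.

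Among the partner proteins, BSG and the glucose transporter genes SLC2A1 and SLC2A3 were not analysed here. EMB, the partner of MCT2, had 86.6, 153, 108 and 38.3 CPM in complete medium for Em, LPN, EPN1 and EPN2, and 205, 210, 246 and 58.3 CPM in differentiation medium. It was higher in each line, with a log2 difference of 0.90 ± 0.51 (adjusted p = 0.294 from edgeR), and passed with the line as a block (adjusted p = 0.0274). EPN2 was its lowest line in both media, and it differed between the lines (adjusted p = 0.0415), a call lost whichever library was left out (adjusted p of 0.0704 to 0.114). NPTN, a relative of basigin, had 174 ± 26.5 and 186 ± 37.3 CPM (SD, n = 4; log2 difference 0.09 ± 0.18, adjusted p = 0.766). The sodium-coupled transporter gene SLC5A8 stayed under 1 CPM in every library. SLC5A12 was at 0 counts in each complete medium library and reached 2.15 CPM in EPN1 in differentiation medium. It did not pass the filter of the edgeR fit and was called, as higher, by DESeq2.

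Lactate leaves the cell with a proton, which carbonic anhydrases help to clear. Of 7 genes of proton and bicarbonate handling, 1 was higher and 1 lower in edgeR, against 2.87% higher and 4.10% lower among all genes. CA9, a membrane-bound carbonic anhydrase induced by hypoxia, fell from 22.3 ± 9.22 to 6.14 ± 1.83 CPM (SD, n = 4; log2 difference -1.86 ± 0.38, adjusted p = 0.0330 from edgeR). The cytosolic CA2 rose from 9.61 ± 5.98 to 143 ± 80.8 CPM (3.89 ± 0.60, adjusted p = 0.0167). CA9 passed in 3 of the 8 fits that leave out 1 library, those without Em or EPN2 in complete medium or EPN2 in differentiation medium, with an adjusted p of up to 0.0921 without EPN1 in complete medium. CA2 passed in 5 and was lost without LPN in complete medium (adjusted p = 0.0620) and without either EPN1 library. CA4 was higher in 4 of 4 lines, and the media overlapped. Its log2 difference was 3.04 ± 1.21 (adjusted p = 0.153 from edgeR), and DESeq2 called it without and with the block. SLC4A4 was lower in 4 of 4 lines (-0.49 ± 0.51, adjusted p = 0.569 from edgeR), and DESeq2 called it with the block.

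SLC16A3 was also set beside other readouts of hypoxia-inducible factor. EGLN3, an oxygen-sensing prolyl hydroxylase, fell from 895 ± 244 to 96.0 ± 33.2 CPM (SD, n = 4; log2 difference -3.22 ± 0.31, adjusted p = 0.00568 from edgeR). VEGFA fell from 302 ± 156 to 34.9 ± 21.9 CPM (-3.11 ± 0.60, adjusted p = 0.0283) and HK1, a hexokinase gene, from 381 ± 85.7 to 143 ± 14.2 CPM (-1.42 ± 0.19, adjusted p = 0.0120). Each fell in 4 of 4 lines without overlap of the media. VEGFA passed in 2 of the 8 fits that leave out 1 library, the same 2 as PDHX (adjusted p up to 0.0909 without EPN1 in differentiation medium), and HK1 in 7, with 0.0527 without that library. HK2, the remaining gene tested of the glucose and hypoxia list, was lower in 3 lines and 1.69-fold higher in EPN2, as given beside SLC16A1 (-0.90 ± 0.96, adjusted p = 0.577). The transcript of the factor itself, HIF1A, had 421 ± 100 and 236 ± 67.6 CPM (-0.84 ± 0.27, adjusted p = 0.0954), and DESeq2 called it, as lower, without and with the block. Within each line, the log2 change of SLC16A3 was more negative than that of LDHA, PDK1, EGLN3 and VEGFA. In LPN, for example, it was -7.42 for SLC16A3 against -4.50 for VEGFA, -3.72 for EGLN3, -2.96 for LDHA and -1.93 for PDK1.

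Among the other regulators, MLXIP, which encodes a glucose-sensing transcription factor, rose from 48.3 ± 1.34 to 93.3 ± 13.6 CPM (SD, n = 4; log2 difference 0.95 ± 0.12, adjusted p = 0.0120 from edgeR) in 4 of 4 lines. Its paralogue MLXIPL was lower in 4 of 4 lines, at 1.72 ± 1.10 and 0.580 ± 0.617 CPM (-1.56 ± 0.90, adjusted p = 0.298), and passed with the line as a block (adjusted p = 0.0352). The MLXIP target TXNIP had 581 ± 404 and 853 ± 176 CPM (0.55 ± 0.48, adjusted p = 0.482). HCAR1, the lactate receptor gene, had at most 0.233 CPM. None of the 5 tested ketone body enzyme genes and none of the 6 tested carnitine and creatine genes differed between the media in edgeR, with 0 and 3 under 0.05 without adjustment and 0 and 1 called by DESeq2. Over all genes, 3954 of 14475 were under 0.05 without adjustment in edgeR, and DESeq2 called 3024 of the 30282 in the table. The 30282 include 5612 genes with no count. Of the ketone body enzymes BDH1, a beta-hydroxybutyrate dehydrogenase gene, had 4.16 ± 2.85 and 8.88 ± 1.58 CPM (1.09 ± 0.51, adjusted p = 0.206) and was called by DESeq2 with the block. With the line as a block SLC6A8, the creatine transporter gene, passed (161 ± 38.9 and 307 ± 134 CPM, log2 difference 0.93 ± 0.31, adjusted p = 0.104 without and 0.0205 with the block). CKB, creatine kinase B, differed between the lines (adjusted p = 0.0282), as did PC, pyruvate carboxylase (adjusted p = 0.0319), and these calls held in 1 and 3 of the 8 fits that leave out 1 library (adjusted p up to 0.0930 and 0.114, both without EPN1 in complete medium).

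**Figure D4:**
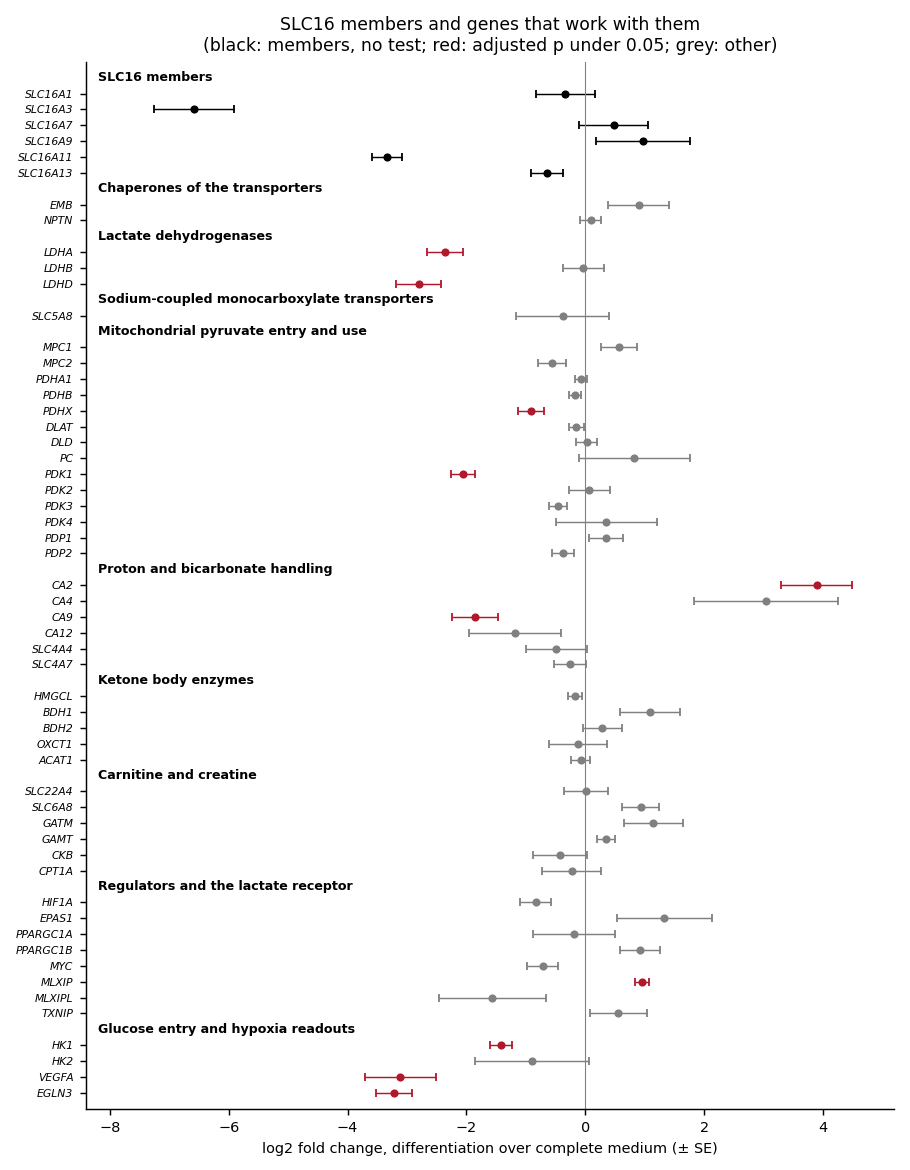
Log2 fold change (± SE, edgeR) from complete to differentiation medium for the tested SLC16 genes of the description (black, no test) and for genes that work with them, grouped by role, with those at an adjusted p-value under 0.05 in red. SLC16A3 at -6.59 lies left of every other gene shown, and LDHA, LDHD, PDHX, PDK1, CA9, HK1, VEGFA and EGLN3 are lower while CA2 and MLXIP are higher.

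The genes whose level across the 8 libraries was most like that of a SLC16 gene were found by the root mean square difference of log2(CPM + 0.1) after each gene was centred on its mean, over 12004 other genes with a symbol. NTM, a cell adhesion gene, LGR5, an R-spondin receptor gene, and SLC2A5, the fructose transporter gene, came nearest to SLC16A3 at 0.66, 0.88 and 1.06. The median of all genes was 3.37. SLC2A5 had 92.3, 96.8, 79.2 and 14.3 CPM in complete medium for Em, LPN, EPN1 and EPN2, and 2.82, 0.0209, 0.769 and 0.0233 CPM in differentiation medium. As with SLC16A3, EPN2 was its lowest line in complete medium and Em its highest in differentiation medium. C1orf216, PARP16 and SLC8B1 came nearest to SLC16A1, at 0.31, 0.31 and 0.33. The nearest gene was RSPO1 for SLC16A11 (0.37), HSPA13 for SLC16A13 (0.14), RASSF8 for SLC16A7 (0.28) and MARCHF3 for SLC16A9 (0.31). RSPO1 was at 0 or 1 count in each differentiation library, and NTM, LGR5 and SLC2A5 were under 0.1 CPM in some of them, so that these distances depend on the value of 0.1 added.

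The epithelial label of the cultures was checked against markers. Of 9 epithelial and ductal markers 8 were in the table, all above the limit of 3 counts, led by KRT8. Their sum was 9106, 7020, 6566 and 6686 CPM in complete medium for Em, LPN, EPN1 and EPN2 and 14128, 5465, 9785 and 3820 CPM in differentiation medium. It was higher in Em and EPN1 and lower in LPN and EPN2, whereas SLC16A1 was lower in Em and EPN1 and near its level in the other two, and the part of the epithelial sum in that result was not tested. In EPN2, KRT8 was 5.34-fold, KRT18 8.30-fold and CFTR 28.7-fold lower in differentiation medium. No marker of this list passed the edgeR test between the media. CDH1, which was higher in 4 of 4 lines without overlap of the media (log2 difference 1.09 ± 0.30), was under 0.05 without adjustment, passed with the line as a block (adjusted p = 0.0173) and was called by DESeq2. Of 8 stromal markers, 8 were above the limit in some library, with VIM the most abundant. Their sum was 73.0, 46.8, 48.3 and 22.3 CPM in complete medium for Em, LPN, EPN1 and EPN2 and 50.8, 7.26, 35.2 and 2.31 CPM in differentiation medium. This sum was lower in each line, as SLC16A3 was, and its part in the result was not tested. The defining stromal markers COL1A1, DCN and LUM had at most 1.15 CPM, 0.187 CPM and 0.758 CPM, while COL3A1 and COL1A2 were higher in differentiation medium in 4 of 4 lines, COL1A2 by 1 count in LPN and COL3A1 with at most 2 counts in complete medium and up to 6.06 CPM, in EPN1, in differentiation medium. Of the 3 stromal markers tested none was called by edgeR, with PDGFRB (lower) under 0.05 without adjustment, and DESeq2 called COL3A1 (higher) and PDGFRB (lower). With line as block, edgeR called PDGFRB too (log2 difference -3.04 ± 0.44, adjusted p = 0.0160). DESeq2 with the block called VIM and PDGFRB as lower and COL1A2 and COL3A1 as higher. The 4 endothelial markers summed to 15.6 to 43.9 CPM, led by KDR, and CDH5 was at 0 or 1 count. The 4 immune markers, led by CD14 and with at most 1 count of CD3E, summed to 58.7, 55.5, 46.4 and 28.6 CPM in complete medium for Em, LPN, EPN1 and EPN2 and to 7.98, 94.3, 18.3 and 63.5 CPM in differentiation medium. This sum was lower in Em and EPN1, as SLC16A1 was, and higher in LPN and EPN2, and its part in the result was not tested. Its members did not move together. In EPN1, CD14 rose from 4.49 to 12.6 CPM and CD68 fell from 41.4 to 5.29 CPM. In LPN, CD14 rose from 5.09 to 70.0 CPM and CD68 fell from 49.7 to 23.9 CPM. PTPRC had at most 2.17 CPM. Of 7 acinar markers 6 were in the table, and they summed to at most 1.97 CPM, led by CPA1, with PNLIP at 0 in all 8 libraries. The 6 endocrine markers summed to 23.7 CPM in Em in differentiation medium, led by GCG, and to at most 3.20 CPM elsewhere.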

How the data were processed

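The authors selected RNA by its poly(A) tail, quantified reads with salmon in an nf-core pipeline (v3.14, Nextflow 23.10.1) with a pig genome of custom annotation. The values that the authors deposited are estimated counts, labelled raw, whereas the study's methods name gene length scaled counts. The submitters' processing notes list Sscrofa11.1 among the builds. Whole numbers made up 78.6% of values above 0. Rows belonging to a gene (56060 rows, of which 26046 carry -iso and 25770 carry -ext, the latter with 2.58% of counts) were summed and rounded, and 8 reporter rows with 0.00142% of counts were left out.

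Media were read from sample titles and column names, and lines from column names. The treatment field of the labels gives endocrine induction media for all 8 samples, so that the medium rests on the titles. The media were compared with edgeR 4.0.16 in R 4.3.3 (TMM factors 0.936 to 1.06, default expression filter, quasi-likelihood test, medium as the only term), with Benjamini-Hochberg adjustment over 14475 genes and a threshold of 0.05. Lines were compared in a fit of medium and line. DESeq2 1.42.0, RLE factors, no filter, no -ext rows, the line as a block and leave-one-out fits were alternatives. Scripts were tested on simulated data. The line pairs the libraries, since both media were given to cultures of the same line. Centred on their medium, log2 CPM of the libraries correlated at 0.400 to 0.657 in the 4 pairs of the same line and at -0.479 to 0.242 in the 12 others. Replicates are lines in the comparison of the media. In its main fit, p-values measure the spread of the libraries within a medium, and the pairing by line is not used. With the line as a block, they measure how far the change varies between lines. In the test between lines, they measure the spread left between the 2 cultures of a line.

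The text names the 7 SLC16 genes, other SLC16 genes, and the listed genes past the threshold with 1 to 3 others per role. Regulators and mitochondrial pyruvate use have more, which exceeds the rule, and some were added after their values were seen. The most alike genes are also named (3 for SLC16A1 and SLC16A3, 1 for each other gene tested). The genes and lists were chosen with earlier results of these data known. A few genes of the lists are not reported here. Of the 7 identifiers 6 were in a separate table of gene names, with the same symbols. Tables and plots used numpy 2.4.6, pandas 2.3.3 and matplotlib 3.10.9.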

Additional observations from a re-analysis of the deposited data

Results flagged for a closer look

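In the 4 libraries of a medium, a library was singled out when its gap to the nearest other, as a share of the group's range, exceeded Dixon's 95% critical value. Of 14 such groups 4 held a library of this kind, where chance gives about 1 in 20 for normally distributed values. The other libraries of SLC16A6 held 0 or 1 count, so that a library with more counts stands apart by construction. SLC16A3 in differentiation medium stood apart in Em at 2.64 CPM. SLC16A6 did so in EPN2 in complete medium (0.655 CPM) and in differentiation medium (0.257 CPM), and SLC16A9 in EPN2 in differentiation medium (1.91 CPM).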

How the results depend on the processing

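In the 8 fits that leave out 1 library, the log2 difference ran from -7.27 to -6.39 for SLC16A3 and from -3.55 to -3.17 for SLC16A11, as a description of genes chosen with these values known. Without both libraries of a line, a choice made after the data were seen, 0 SLC16 genes were past it without EPN1 (edgeR, with 3 under 0.05 unadjusted) and 1 without LPN, so that leave-one-out counts ran from 0 to 2. The count of all genes between the media, 1009, became 2884 with the line as a replicate block, 506 without the filter, 3024 with DESeq2 and 5594 with DESeq2 and the replicate block. Leave-one-out fits gave 0 to 1207, with 0 without the line EPN1 (edgeR, 2220 unadjusted), 5 without LPN and 149 without Em. Of single libraries, EPN1 (163 without its complete and 70 without its differentiation medium library), LPN (168 and 177) and Em (446 and 498) each lowered it by over 1.5 times. Listed related genes numbered 24 with DESeq2 and the replicate block and 0 to 13 leave-one-out, with 0 without the line LPN or EPN1 (edgeR, 16 unadjusted in each). Between lines, all genes numbered 1163 without the filter, 4691 with the likelihood ratio test of DESeq2 and 24 to 969 leave-one-out, the fewest without EPN1 in differentiation medium, and SLC16 genes 3 with DESeq2 and 0 leave-one-out. The SLC16 count between the media was 2 with edgeR and the replicate block and 3 with DESeq2 and the replicate block. The cause of these shifts was not tested. Counts of 0 or 1 limit SLC16A6 in 3 lines.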
